A study of Mus musculus with 6 samples.

Results

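The glutathione transferases (Gst), the Ugt2 glucuronosyltransferases, the sulphotransferases (Sult), the carboxylesterases (Ces) and the aldehyde dehydrogenases (Aldh) were compared between the lungs of 2 kinds of F1 mice. Members were the genes whose platform symbol starts with Gst, Ugt1, Ugt2, Sult, Ces or Aldh, with Gstcd left out, and each gene was read from its brightest probe set by the mean over all 6 arrays. This gave 74 genes of the 18193 with a probe set of their own, through 105 probe sets. They were 20 Gst, 8 Ugt2, 13 Sult, 13 Ces and 20 Aldh genes. The Ugt1 locus gave 0 members, since its 3 probe sets each carry several symbols. All 74 symbols matched a RefSeq gene by gene ID.

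Total RNA came from whole lungs of adult females that were snap frozen after death by cervical dislocation under Avertin anaesthesia, and no other treatment is named. In the AKR_F1 group (3 arrays) the mice were F1 offspring of AKR/J and FVB/NJ, and in the DBA_F1 group (3 arrays) F1 offspring of DBA/2J and FVB/NJ. Chromosomes of FVB/NJ were thus common to all samples, and those of AKR/J or DBA/2J told the groups apart. The series asks for basal differences in lung expression between these genotypes. Whether the 3 samples of a group are different animals is not stated in the labels, and p-values therefore measure only the spread between these samples, which may be technical.

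These enzymes make reactive or fat-soluble compounds easier to remove. Carboxylesterases split esters and amides, including lipid esters and many drugs, and aldehyde dehydrogenases oxidise aldehydes to acids. Glutathione transferases, sulphotransferases and glucuronosyltransferases then attach glutathione, sulphate or glucuronic acid. Several members also act in ordinary metabolism, such as the breakdown of amino acids or the making of retinoic acid. In the lung the club cells of the airway are known for such enzymes, and the liver holds many of them at high levels.

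Values are log2 signals as deposited, and every difference is AKR_F1 minus DBA_F1 on that scale, so that a negative difference means a higher DBA_F1 mean. A gene was called where its limma adjusted p (Benjamini-Hochberg over all 27022 tested probe sets) was under 0.05. Array medians lay between 5.46 and 5.49, and arrays correlated with each other at 0.965 to 0.995. The tissue label was borne out by the alveolar type 2 markers, whose list mean was 12.06 to 12.41 on every array. It was 12.29 to 12.41 in AKR_F1 and 12.06 to 12.24 in DBA_F1. All 8 of these markers had a higher AKR_F1 mean, and 3 were called. All 8 endothelial markers also had a higher AKR_F1 mean, with 0 called. Markers of squamous epithelium, skeletal muscle and adipocytes differed between arrays as well. The mean of 9 squamous epithelium markers was 9.27 in AKR_F1 replicate 3 but 4.78 and 4.71 in the other AKR_F1 arrays, and it was 8.83 to 9.57 in DBA_F1. Skeletal muscle markers ran the same way, at 5.64 and 5.10 against 9.66 in AKR_F1 and at 9.02 to 9.52 in DBA_F1. Adipocyte markers (8 measured) averaged 6.48 to 7.47 in AKR_F1 and 8.28 to 9.37 in DBA_F1, and 6 of them were called. In whole tissue, fewer cells of a type and less RNA per cell cannot be told apart.

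Aldh6a1 and Ces1f were called, and both were higher in DBA_F1. Each gene has only 1 probe set, so neither difference could be checked on another. Aldh6a1, the mitochondrial methylmalonate semialdehyde dehydrogenase of valine and pyrimidine breakdown, was 1.35-fold higher in DBA_F1 (95% interval 1.23 to 1.48). Ces1f, a carboxylesterase that splits triacylglycerol and other esters, was 1.79-fold higher there (95% interval 1.49 to 2.15). These were 2 of 50 members tested, beside 2.48% of all 13202 genes tested, 1.06% of genes called as higher in DBA_F1, and 2.62% of tested probe sets. The shares do not set the members apart from other genes.

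To show what lies before these genes, the 250 bases upstream of the start are given for Aldh6a1 and for the 2 members that follow the called ones by adjusted p, Gstz1 and Aldh4a1. The sequences are from RefSeq on GRCm38.p6, from the most upstream start where the table lists several: chr12:84451025-84451274 (minus strand) for Aldh6a1, chr12:87146915-87147164 (plus strand) for Gstz1 and chr4:139622644-139622893 (plus strand) for Aldh4a1. The promoter table has no entry for Ces1f. Capitals mark CCAAT and GCGTG on either strand.
Aldh6a1: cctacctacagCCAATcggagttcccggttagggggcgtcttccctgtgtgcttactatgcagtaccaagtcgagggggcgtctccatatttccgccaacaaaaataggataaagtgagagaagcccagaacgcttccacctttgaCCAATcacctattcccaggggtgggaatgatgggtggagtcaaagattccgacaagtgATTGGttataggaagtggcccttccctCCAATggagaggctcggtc
Gstz1: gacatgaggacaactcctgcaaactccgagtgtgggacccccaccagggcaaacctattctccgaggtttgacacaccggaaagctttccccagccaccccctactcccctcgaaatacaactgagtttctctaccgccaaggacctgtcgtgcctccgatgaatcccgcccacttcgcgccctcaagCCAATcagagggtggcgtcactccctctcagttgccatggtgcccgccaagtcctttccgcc
Aldh4a1: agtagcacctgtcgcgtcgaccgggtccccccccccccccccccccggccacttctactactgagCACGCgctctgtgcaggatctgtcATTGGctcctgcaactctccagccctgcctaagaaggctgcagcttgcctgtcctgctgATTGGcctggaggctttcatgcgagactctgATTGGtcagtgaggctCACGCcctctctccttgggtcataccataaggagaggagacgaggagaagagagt
The Aldh6a1 window holds CCAAT at 4 places, that of Gstz1 at 1 and that of Aldh4a1 at 3. CCAAT was found in 34.5% of the 27025 windows of the same length in the table. GCGTG, the core bound by the aryl hydrocarbon receptor, occurred at 2 places before Aldh4a1 and was found in 28.2% of windows. Neither AGGTCA, a nuclear receptor motif (13.8% of windows), nor TGACNNNGC, the antioxidant response core (10.1% of windows), was found in the 3 windows. A second Aldh6a1 start in the table has a window, chr12:84448318-84448567 (minus strand), with AGGTCA at 1 place and CCAAT at 1. Motifs were searched on both strands. The Aldh6a1 and Gstz1 windows lie 2.7 Mb apart on chromosome 12.

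The members as a whole leaned to the DBA_F1 side by small amounts. The DBA_F1 mean was the higher one for 36 of the 50 tested members (72.0%), beside 44.9% of all genes tested, and the median difference was -0.06 beside 0.015 over all genes. The 36 became 32 without AKR_F1 replicate 3 and 39 with that array alone against DBA_F1. Differences were under 0.1 in size for 20 members and over 0.5 for 4, which were Aldh3a1, Ces1h, Ces1f and Sult1a1. An unadjusted p under 0.05 was reached by 12 members with a higher DBA_F1 mean, beside 8.41% of genes, and by 2 with a higher AKR_F1 mean, Aldh1a2 and Ces2b, beside 10.7% of genes. The 2 groups of arrays did not overlap for 9 members on the DBA_F1 side, beside 10% of genes, and for 3 on the AKR_F1 side, Aldh1a2, Ces2b and Gstm4, beside 14.2% of genes. Members share loci and some share sequence, so these counts are not of independent genes.

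**Figure D1:**
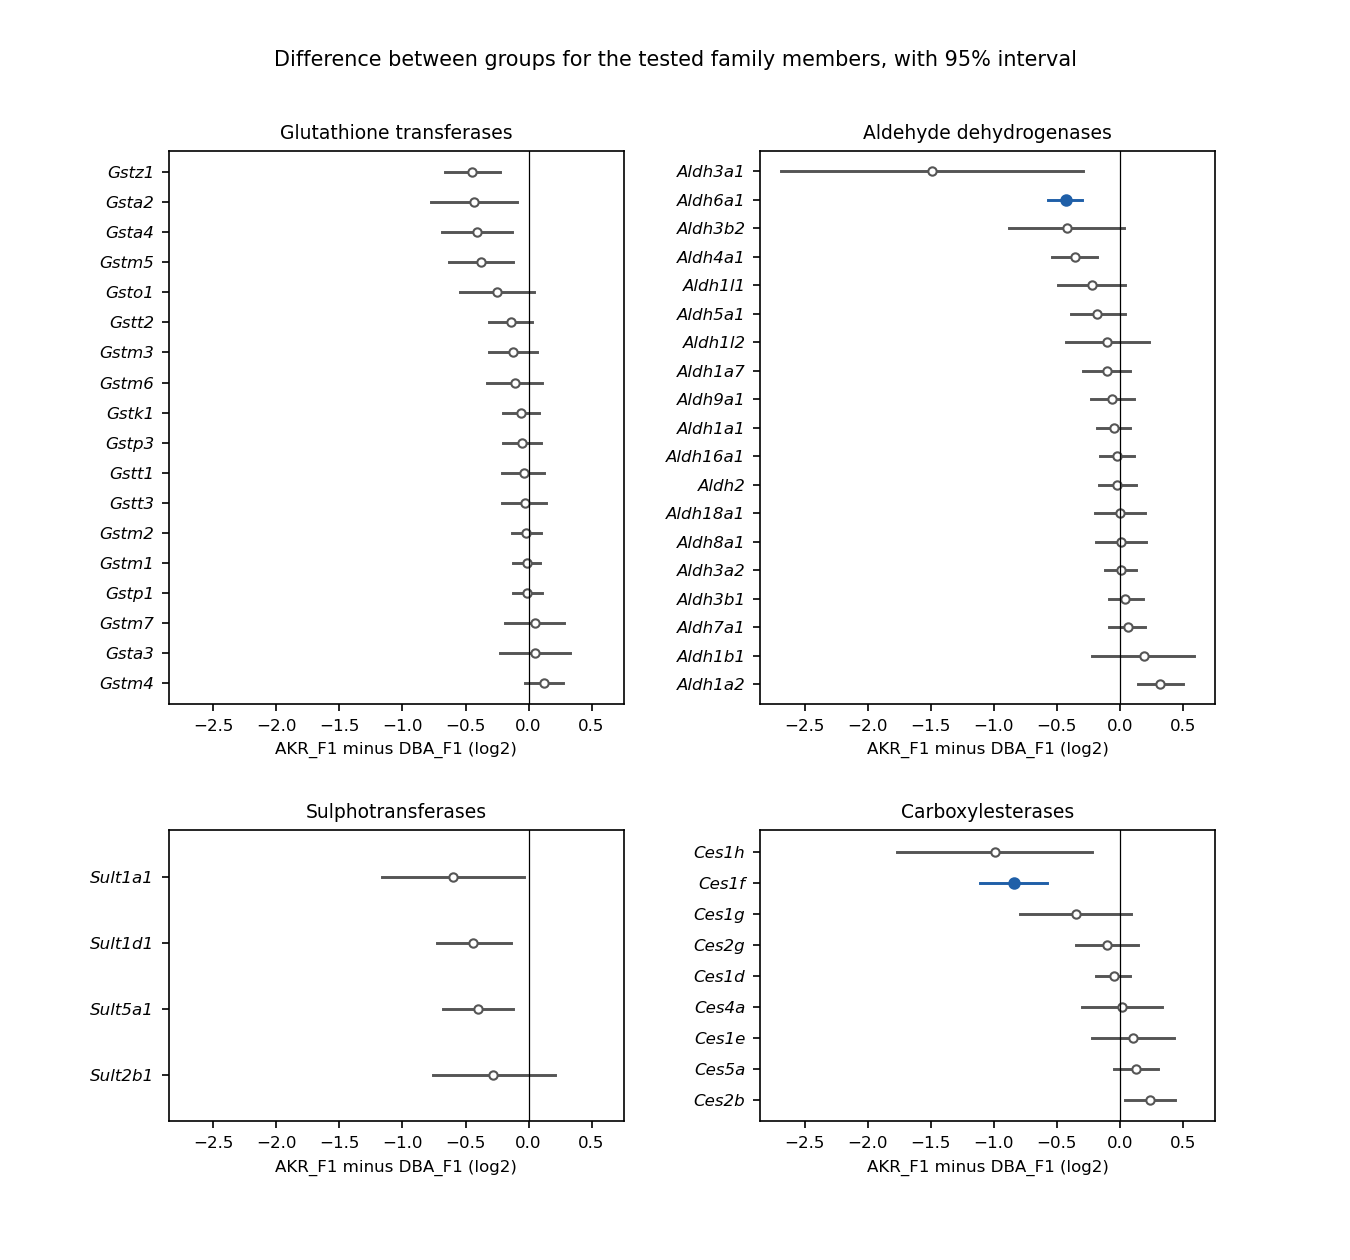
The AKR_F1 minus DBA_F1 log2 difference of each of the 50 tested members, grouped by family, with its 95% interval from limma; filled points are the called members. Aldh6a1 at -0.43 and Ces1f at -0.84 are called, while the larger difference of Aldh3a1 (-1.49) has an interval from -2.69 to -0.29.

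Among the carboxylesterases 1 of 9 tested genes was called, 5 had a higher DBA_F1 mean and the median difference was -0.052. With arrays always given in the order of their replicate numbers, Ces1f measured 6.14, 6.21 and 6.0 in AKR_F1 and 7.16, 6.94 and 6.78 in DBA_F1. All 3 DBA_F1 arrays lay above all AKR_F1 arrays, and AKR_F1 replicate 3 was the lowest of the 6. The means were 6.12 ± 0.11 and 6.96 ± 0.19 (SD, n = 3 each), a difference of -0.84 ± 0.112 (SE) with a limma adjusted p of 0.0142. It was not called without AKR_F1 replicate 1 (adjusted p = 0.066), AKR_F1 replicate 2 (0.0563) or DBA_F1 replicate 2 (0.0662), by the same limma fit. The only probe set of Ces1f has an _s_at suffix, which marks probes that can match related transcripts.

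Ces1f lies in a row of Ces1 genes on chromosome 8. Going along the cluster in RefSeq order, the difference was -0.05 for Ces1d, 0.10 for Ces1e, -0.84 for Ces1f, -0.35 for Ces1g, -0.99 for Ces1h and 0.13 for Ces5a. Of these 6 tested neighbours Ces1f alone was called. Ces1d, which splits triacylglycerol, measured 11.48, 11.65 and 11.51 in AKR_F1 and 11.62, 11.54 and 11.64 in DBA_F1, with a 95% interval for the difference of -0.19 to 0.08. Ces1g, a lipid ester hydrolase of liver and intestine, measured 5.34, 5.81 and 5.62 against 5.75, 5.77 and 6.32 (adjusted p = 0.365, limma). The Ces1d arrays of both groups overlapped throughout, and in Ces1g the overlap left DBA_F1 replicate 3 alone above the rest.

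Ces1h had a different array pattern. Its signal was 5.0, 4.90 and 6.17 in AKR_F1 against 6.17, 6.62 and 6.26 in DBA_F1, so that AKR_F1 replicate 3 read like the lowest DBA_F1 array. The gap that counts Ces1h among the members without overlap is smaller than the digits printed here. The limma difference was -0.99 ± 0.33 (SE), with an adjusted p of 0.182. It was -1.40 with an adjusted p of 0.00434 without AKR_F1 replicate 3, and -0.18 with an adjusted p of 0.869 for that array alone against DBA_F1. AKR_F1 replicates 1 and 2 stood apart for Ces1h as they did for the squamous epithelium and muscle markers, whose list means are given above.

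Among the tested carboxylesterases outside the Ces1 group, Ces2b had the largest difference to the AKR_F1 side, at 5.47, 5.26 and 5.37 against 5.19, 5.12 and 5.08, without overlap and with a limma adjusted p of 0.203. Ces2g measured 7.19, 7.15 and 7.20 against 7.34, 7.46 and 7.06, where DBA_F1 replicate 3 was the lowest array of all. Ces5a had 7.56, 7.56 and 7.42 against 7.28, 7.46 and 7.43. This Ces5a probe set has an _x_at suffix, and the other probe sets of the gene were of low signal and not tested. Ces4a, the remaining tested gene, differed by 0.02.

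Of 19 tested aldehyde dehydrogenases 1 was called, 12 had a higher DBA_F1 mean and the median difference was -0.05. Aldh6a1 measured 8.43, 8.48 and 8.39 in AKR_F1 and 8.87, 8.94 and 8.80 in DBA_F1. The groups did not overlap, and the lowest DBA_F1 array stood above the highest AKR_F1 array by more than either group's spread. The means were 8.44 ± 0.05 and 8.87 ± 0.07 (SD, n = 3 each), a difference of -0.43 ± 0.0561 (SE) with a limma adjusted p of 0.0129. Its adjusted p was 0.0719 without AKR_F1 replicate 1, 0.0519 without AKR_F1 replicate 2 and 0.0566 without DBA_F1 replicate 2. Of its neighbours within 4 genes on either side, 6 were tested and 0 called by limma. In RefSeq order the differences were -0.25 for Coq6, -0.28 for Entpd5, -0.13 for Bbof1 and 0.03 for Rnf113a2 on one side, and -0.04 for Lin52 and 0.09 for Abcd4 on the other.

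**Figure D2:**
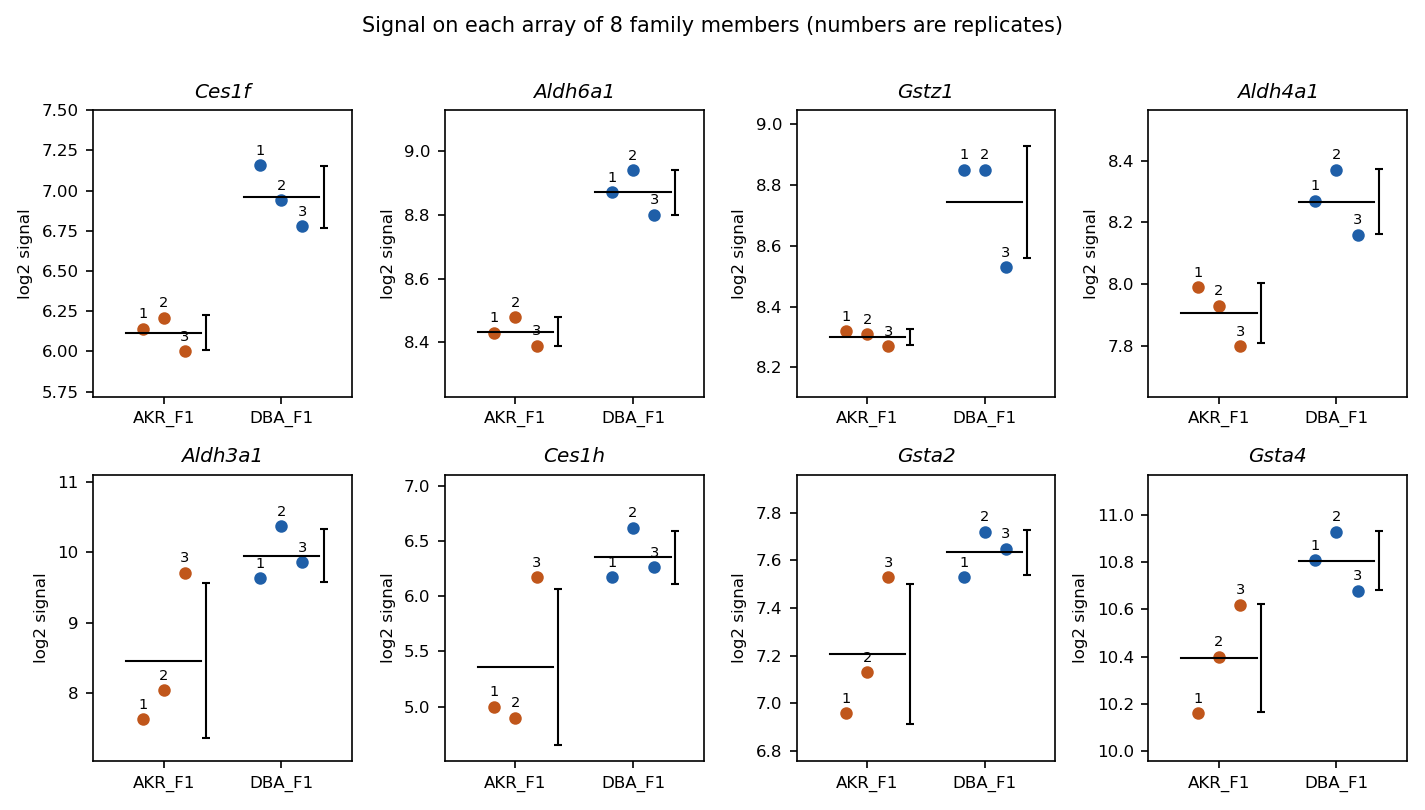
The log2 signal of 8 members on each array, with AKR_F1 left and DBA_F1 right in each panel; points are arrays numbered by replicate, horizontal lines are group means and the error bars beside them the SD of 3 arrays, on axes that do not start at 0. The groups do not overlap in the upper panels (Ces1f, Aldh6a1, Gstz1 and Aldh4a1), while AKR_F1 replicate 3 lies near DBA_F1 in the lower ones (Aldh3a1, Ces1h, Gsta2 and Gsta4).

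The members that followed by adjusted p were Gstz1 and Aldh4a1, which were not called. Gstz1, the maleylacetoacetate isomerase of tyrosine breakdown and a glutathione transferase by sequence, measured 8.32, 8.31 and 8.27 against 8.85, 8.85 and 8.53. Aldh4a1, which completes proline breakdown in mitochondria, measured 7.99, 7.93 and 7.80 against 8.27, 8.37 and 8.16. In both genes all DBA_F1 arrays lay above all AKR_F1 arrays. The difference was -0.45 ± 0.0915 (SE) for Gstz1 with a limma adjusted p of 0.0578. For Aldh4a1 it was -0.36 ± 0.0773 (SE) with an adjusted p of 0.0659. Both were called by limma with robust eBayes (adjusted p = 0.0397 and 0.0494) and with array weights (0.0265 and 0.0406), and Gstz1 without DBA_F1 replicate 3 (0.0109). Aldh5a1, which removes succinic semialdehyde in the breakdown of GABA, overlapped between groups, with a difference of -0.18 (adjusted p = 0.358, limma). Aldh7a1 of lysine breakdown differed by 0.06 (adjusted p = 0.687), and Aldh18a1 of proline synthesis by 0.00.

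Aldh3a1, an aldehyde dehydrogenase of stratified epithelia such as cornea that clears fatty and aromatic aldehydes, had the largest difference of all members and was not called. It measured 7.63, 8.04 and 9.71 in AKR_F1 and 9.63, 10.37 and 9.86 in DBA_F1. AKR_F1 replicate 3 was thus above DBA_F1 replicate 1, and the other AKR_F1 arrays were the lowest. The limma difference was -1.49 ± 0.507 (SE), with a 95% interval of -2.69 to -0.29 and an adjusted p of 0.191. Without AKR_F1 replicate 3 it was -2.11 with an adjusted p of 0.00443, and with the mean of the squamous epithelium markers as a covariate it was -0.27 with an adjusted p of 0.717.

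Aldh3b2, an enzyme for lipid aldehydes, had 5.87, 5.77 and 6.35 in AKR_F1 and 6.37, 6.73 and 6.16 in DBA_F1, where AKR_F1 replicates 1 and 2 were again the lowest arrays (limma adjusted p = 0.301). Aldh3a2 and Aldh3b1, the other genes of that subfamily, differed by 0.01 and 0.04.

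The retinal dehydrogenases, which make retinoic acid, had mean differences of both signs, and none was called. Aldh1a2 measured 7.64, 7.68 and 7.52 in AKR_F1 against 7.20, 7.39 and 7.27 in DBA_F1. These arrays did not overlap, and the difference of 0.32 ± 0.0752 (SE) had a limma adjusted p of 0.0839. Aldh1a1 measured 12.79, 12.87 and 12.76 against 12.79, 12.84 and 12.95, and the 95% interval of its difference ran from -0.18 to 0.08. Aldh1a7, a close relative of Aldh1a1, had 10.21, 10.45 and 10.25 against 10.45, 10.31 and 10.46. Both overlapped between groups.

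Aldh2, the mitochondrial acetaldehyde dehydrogenase, measured 11.67, 11.78 and 11.57 against 11.64, 11.67 and 11.76 on its brightest probe set, with a 95% interval of -0.17 to 0.13 for the difference. Its 5 tested probe sets ran from -0.22 to 0.22, and none of them was called; 1 had an unadjusted limma p under 0.05 (0.0211). It was the only member with tested probe sets of opposite sign that far apart. In Aldh1l1, which oxidises a formyl folate, the difference was -0.22 with overlapping arrays. The other tested Aldh genes, Aldh1b1, Aldh1l2, Aldh8a1, Aldh9a1 and Aldh16a1, overlapped between groups as well.

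Of 18 tested glutathione transferases 0 were called by limma, 4 had an unadjusted p under 0.05, and 15 had a higher DBA_F1 mean. The median difference was -0.056. Besides Gstz1 the 4 were Gsta2, Gsta4 and Gstm5, each with AKR_F1 replicates 1 and 2 as the lowest arrays. Gsta2 measured 6.96, 7.13 and 7.53 against 7.53, 7.72 and 7.65. Gsta4, which conjugates the lipid peroxidation product hydroxynonenal, measured 10.16, 10.40 and 10.62 against 10.81, 10.93 and 10.68. Gstm5 had 7.59, 7.77 and 7.85 against 8.21, 8.24 and 7.91. The highest AKR_F1 array was replicate 3 in each of these, and its gap to the lowest DBA_F1 array was under the AKR_F1 spread. The differences were -0.43, -0.41 and -0.38, with limma adjusted p of 0.188, 0.138 and 0.139. Without AKR_F1 replicate 3, Gsta2 (-0.59, adjusted p = 0.0189) and Gsta4 (-0.52, adjusted p = 0.0377) were called. No other setting called either gene.

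Other glutathione transferases differed little. Gstp1, the pi class enzyme, measured 11.96, 11.89 and 12.05 against 11.99, 11.98 and 11.96, and the 95% interval of its difference was -0.12 to 0.11. For Gstm1, the mu class enzyme, the arrays read 11.44, 11.51 and 11.41 against 11.44, 11.44 and 11.51, with an interval of -0.12 to 0.09. On these brightest probe sets the intervals leave room for differences of at most 0.12 in size in either direction. Another tested Gstm1 probe set, of lower signal, differed by -0.17 with a 95% interval of -0.41 to 0.06. Gsto1, an omega class enzyme that reduces dehydroascorbate, differed by -0.25 with overlapping arrays on its brightest probe set. Its other tested probe set differed by -0.35 without overlap (limma adjusted p = 0.107). Gstm4 was the only Gst gene whose AKR_F1 arrays were all higher, by 0.12 (limma adjusted p = 0.358). Gsta3, Gstk1, Gstm2, Gstm3, Gstm6, Gstm7, Gstp3, Gstt1, Gstt2 and Gstt3 overlapped between groups.

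All 4 tested sulphotransferases had a higher DBA_F1 mean, with a median difference of -0.419, 0 were called by limma and 3 had an unadjusted p under 0.05. Sult1a1, the phenol sulphotransferase, measured 9.78, 10.01 and 9.83 in AKR_F1 and 9.90, 10.59 and 10.93 in DBA_F1. DBA_F1 replicate 1 lay within the AKR_F1 range, and the other DBA_F1 arrays above it. The difference was -0.60 ± 0.236 (SE) with a limma adjusted p of 0.242, and -0.89 with an adjusted p of 0.0272 without DBA_F1 replicate 1. Sult1a1 was called in no other setting.

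Sult1d1, which sulphates catecholamines, measured 7.30, 7.66 and 7.56 against 8.07, 8.03 and 7.73. Sult5a1, whose substrates are less well known, had 6.01, 6.40 and 6.13 against 6.46, 6.56 and 6.72. Neither gene overlapped between groups on these probe sets, and the limma adjusted p was 0.135 for Sult1d1 and 0.148 for Sult5a1. The other tested probe set of Sult1d1 did overlap, with a difference of -0.24 (limma adjusted p = 0.389). Sult2b1, the cholesterol sulphotransferase of squamous epithelia, measured 6.06, 6.21 and 6.80 against 6.55, 6.90 and 6.45. Its AKR_F1 replicates 1 and 2 were the lowest arrays (limma adjusted p = 0.527).

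In 8 of the 50 tested members (16.0%) AKR_F1 replicates 1 and 2 lay below the other 4 arrays, beside 9.56% of all genes. They were Aldh3a1, Aldh3b2, Ces1h, Gsta2, Gsta4, Gstm5, Gsto1 and Sult2b1. Aldh6a1, Ces1f, Gstz1, Aldh4a1, Sult1a1, Sult1d1 and Sult5a1 are not among them. For AKR_F1 replicate 3 alone against DBA_F1 the difference was -0.96 for Ces1f and -0.48 for Aldh6a1, beside -0.84 and -0.43 over all arrays. The limma adjusted p was 0.163 and 0.194, with a spread estimated from DBA_F1 only and the single AKR_F1 array assumed to vary like that group. With the mean of the squamous epithelium markers as a covariate it was -0.95 and -0.46, with limma adjusted p of 0.0523 and 0.0682.

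**Figure D3:**
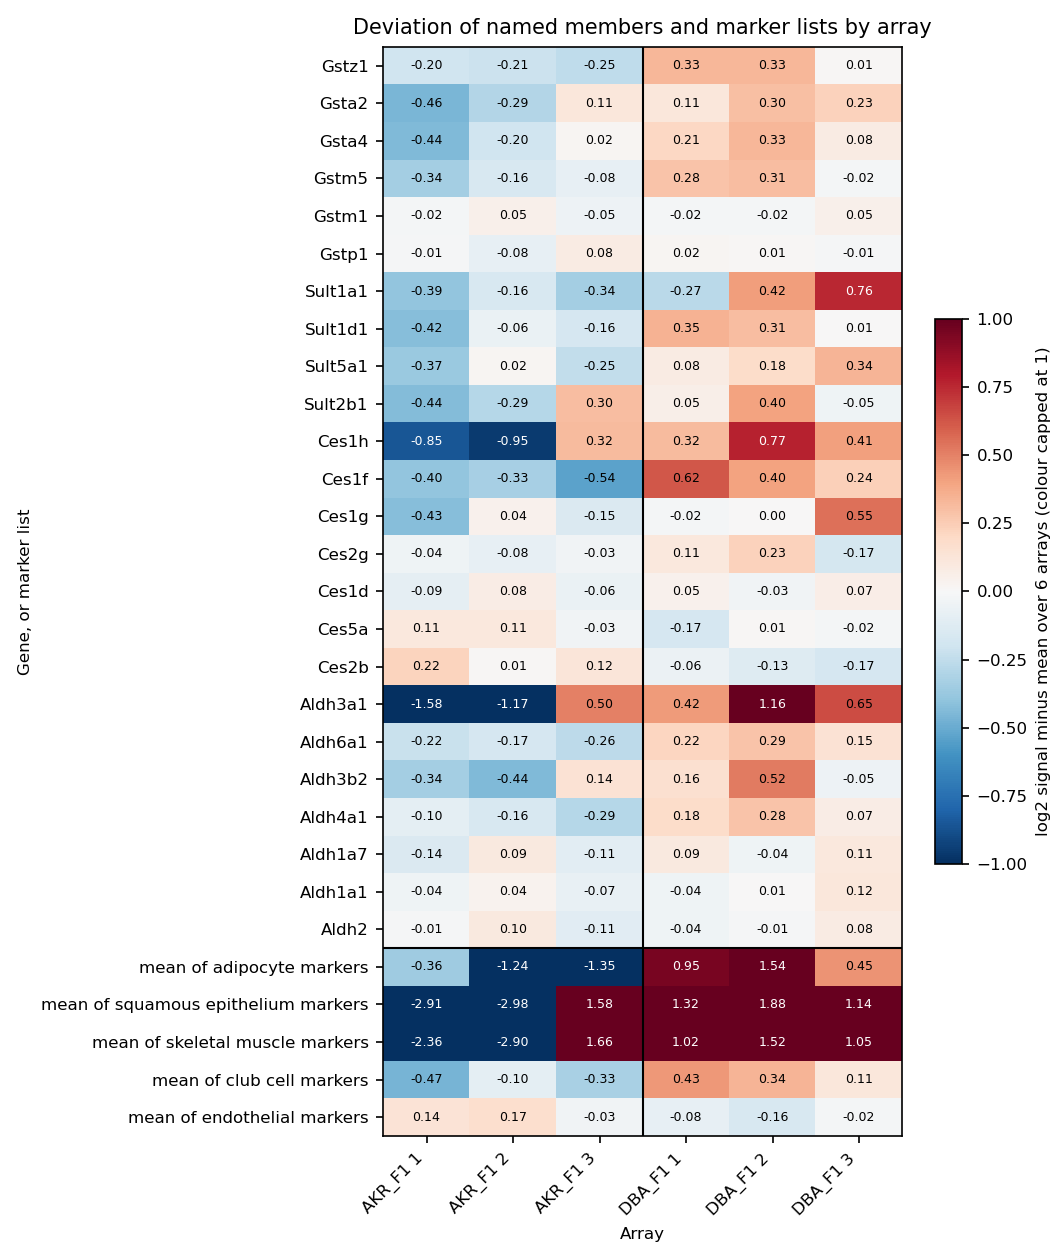
The log2 signal of each of 24 members, and the mean of each of 5 marker lists below the line, on each array (columns) as a deviation from its own mean over the 6 arrays; colours are capped at 1 in either direction. AKR_F1 replicates 1 and 2 are low and AKR_F1 replicate 3 is not for Aldh3a1, Ces1h and the squamous epithelium and skeletal muscle markers, while all 3 AKR_F1 arrays are low for Aldh6a1 and Ces1f.

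The adipocyte markers separated the groups completely, as Ces1f and Aldh6a1 did: 8 of 8 had a higher DBA_F1 mean, and none of their array values is at 0. With their mean as a covariate the difference was -0.66 ± 0.281 (SE) for Ces1f and -0.31 ± 0.14 (SE) for Aldh6a1, each with a limma adjusted p of 0.828. The same fit called 8 of all tested probe sets. The list mean does not overlap between the groups, so adipocyte signal and genotype cannot be told apart here. Club cell markers, 9 of 9 with a higher DBA_F1 mean and 2 called, averaged 10.57 to 10.94 in AKR_F1 and 11.15 to 11.47 in DBA_F1. They moved unevenly, from -1.67 for Bpifa1 to -0.06 for Scgb1a1 with a median of -0.19. Only 4 of the differences were over 0.5 in size, those of Bpifa1, Scgb3a1, Kcne3 and Muc5b. The part of club cells in the members' differences was not tested. Hepatocyte markers were low on every array, with a list mean of 4.41 to 4.54, and 3 of the 9 measured passed the filter on low signal.

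The other 24 members did not pass that filter, which removed probe sets with a mean of 4.72 or less. They were all 8 Ugt2 genes, 9 Sult, 4 Ces, 2 Gst genes (Gsto2 and Gstt4) and Aldh1a3. The Ugt2 genes, whose enzymes glucuronidate steroids and drugs mainly in liver, read 2.36 to 3.22 on every array. Over all 24 the values ran from 2.36 to 5.45, and 22 were below the filter level on every array. The exceptions were Ces2f, with 3.21, 3.32 and 4.85 in AKR_F1 and 4.47, 5.45 and 4.46 in DBA_F1, and Sult1c1, with 3.70, 3.82 and 3.82 against 4.18, 4.75 and 3.94. Without detection calls, low values have no stated background limit, so nothing is said of the presence of these transcripts. The groups did not overlap for Ces1c, Sult1c1 and Sult4a1, each on the DBA_F1 side. Just inside the filter were Aldh1l2 (mean 4.77) and Aldh1b1 (4.89), and just outside it Ces2f (4.29) and Ces2e (4.16).

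Genes that supply or surround these enzymes gave 3 calls among 86 tested, all higher in DBA_F1, beside 2.48% of all genes called and 1.06% called as higher in DBA_F1. Without AKR_F1 replicate 3 there were 10 calls. Of 12 tested membrane-bound and other conjugating enzymes 1 was called, Mgst3, a microsomal glutathione transferase, at 9.28, 9.39 and 9.48 against 9.93, 9.94 and 9.92 (difference -0.54, limma adjusted p = 0.00649). Of 16 other hydrolases and aldehyde-handling enzymes 1 was called, Adh1, the alcohol dehydrogenase that also oxidises retinol, at 9.60, 9.77 and 9.63 against 10.34, 10.37 and 10.34 (difference -0.69, limma adjusted p = 0.00221). The DBA_F1 arrays of both genes lay within a few hundredths of each other and above every AKR_F1 array. With the adipocyte marker mean as a covariate neither was called, with limma adjusted p of 0.573 for Mgst3 and 0.535 for Adh1, and Mgst3 was not called for AKR_F1 replicate 3 alone (0.136).

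Of 10 tested xenobiotic-sensing regulators 1 was called, Ppara, a fatty acid receptor that drives fat oxidation. It measured 6.21, 6.0 and 6.29 against 7.56, 7.60 and 7.03, a difference of -1.23 with a limma adjusted p of 0.014. It was not called without AKR_F1 replicate 1 (0.0635), AKR_F1 replicate 2 (0.0716) or DBA_F1 replicate 2 (0.061). The mean of its tested probe sets gave a smaller difference of -0.81 (limma adjusted p = 0.0498). In the same list Ahr, the aryl hydrocarbon receptor, overlapped at a difference of 0.29. Of the hydrolase list 13 of 16 had a higher DBA_F1 mean, and Ephx2, the soluble epoxide hydrolase, measured 6.68, 6.06 and 6.10 against 7.82, 8.42 and 7.02 (limma adjusted p = 0.0847). Ephx2 was called without DBA_F1 replicate 3 (-1.84, adjusted p = 0.0252) and with array weights (0.047). With robust eBayes in limma its adjusted p rose to 0.155. With the adipocyte marker mean as a covariate its difference turned sign, to 0.40.

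The remaining lists gave 0 calls by limma. Their median differences were -0.016 for glutathione supply, -0.010 for donor supply, -0.028 for Nrf2-driven genes and -0.084 for retinoic acid genes, while the lists with a call had -0.111 (conjugating), -0.109 (hydrolases) and 0.082 (regulators), beside 0.015 over all genes. Among 13 genes of glutathione supply and recycling 7 had a higher DBA_F1 mean and 4 an unadjusted p under 0.05. Of the 4, Gpx2 and Gpx4 were on the DBA_F1 side, and Gpx3 (0.28) and Gclm (0.12) on the AKR_F1 side. Gpx2, the epithelial glutathione peroxidase, measured 7.71, 8.02 and 8.73 against 8.72, 8.97 and 8.83, with a limma adjusted p of 0.198. Among 11 genes that supply the glucuronide and sulphate donors 6 had a higher DBA_F1 mean and 2 an unadjusted p under 0.05. Bpnt1, which clears the spent sulphate donor, differed by -0.26 (adjusted p = 0.207). Nrf2 is a transcription factor of the response to oxidative and electrophilic stress. Among 13 genes driven by Nrf2, 9 had a higher DBA_F1 mean and 1 an unadjusted p under 0.05. Nqo1, its quinone reductase target, differed by -0.31 with overlapping arrays (adjusted p = 0.322). Among 11 retinoic acid genes outside Aldh 8 had a higher DBA_F1 mean and 2 an unadjusted p under 0.05. The 2 were Rbp4 at -0.54 and Rdh11 at 0.22. Crabp2, the retinoic acid carrier, read 3.74, 3.68 and 6.83 against 6.30, 7.18 and 6.35, with AKR_F1 replicates 1 and 2 the lowest (adjusted p = 0.284). Without AKR_F1 replicate 3 limma called Gpx2 (-0.97, adjusted p = 0.00721), Nqo1 (-0.49, 0.0408) and Crabp2 (-2.90, 0.00238). Nnmt, a methyltransferase of nicotinamide in the conjugating list, differed by -0.23 (adjusted p = 0.225).

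**Figure D4:**
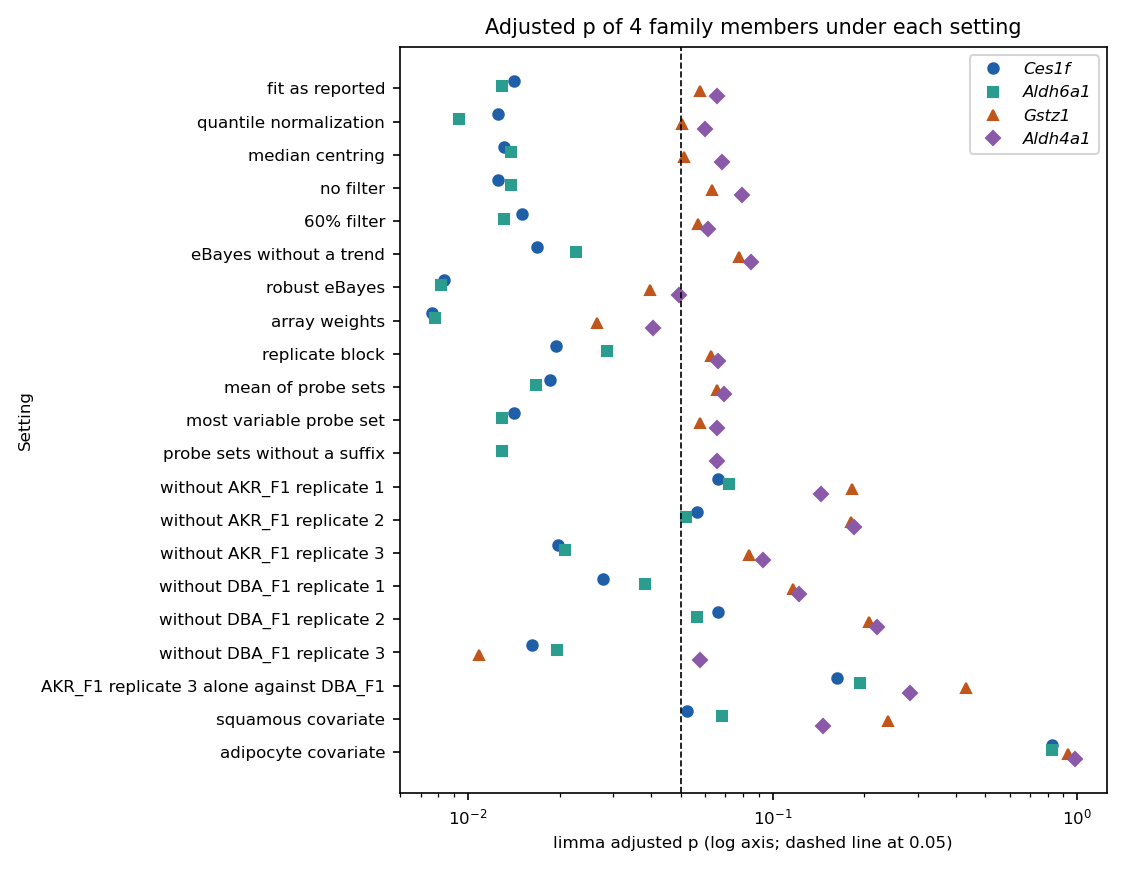
The limma adjusted p (log axis, dashed line at 0.05) of Ces1f, Aldh6a1, Gstz1 and Aldh4a1 under each way of processing, which are the rows. Ces1f and Aldh6a1 lie left of the line in the fit as reported and right of it without AKR_F1 replicate 1, AKR_F1 replicate 2 or DBA_F1 replicate 2, for AKR_F1 replicate 3 alone and with either marker covariate.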

How the data were processed

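Lung RNA from 6 samples was measured on Affymetrix arrays. The authors deposited log2 signals of each probe set on each array. MAS5 and RMA appear in the submitters' processing notes without versions, and which of them made the table is not given in the sources used here. The scale was read from the values, and the deposited values were used as they stand.

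After removal of 64 control probe sets, 45037 were left, 34945 with 1 platform symbol, 932 with several and 9160 with none. Those with several symbols went unnamed, 8 of them from these families. The lowest 40% by mean were not tested. Groups were compared with limma 3.58.1 in R 4.3.3 (lmFit, eBayes with a trend, two-sided, group as the only term; 4 residual and 3.06 prior degrees of freedom) over 27022 probe sets, with Benjamini-Hochberg adjustment, and the fit was tested on simulated data. An exact permutation test of 3 against 3 arrays cannot go below p = 0.1. No depth is recorded for arrays, and their number limits the precision.

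The members, the pathway and marker lists and the alternatives were chosen with earlier results of these data known. The text names, by rule, every called member, in each family the 3 tested members of highest mean and the 4 of largest difference, members whose probe sets disagree by more than 0.3, called pathway genes and up to 3 others per list. Other members are named to account for all. Alternatives covered normalization, filter, variance model, probe set choice, single arrays left out, AKR_F1 replicate 3 alone, marker covariates and the replicate number as a block. Of the 74 members, 61 had a RefSeq promoter entry, as had 17 of the 24 named members.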

Additional observations from a re-analysis of the deposited data

How the results depend on the processing

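Aldh6a1 and Ces1f were the called members under quantile normalization, median centring, no filter, a 60% filter, eBayes without a trend, the mean of probe sets, the most variable probe set and the replicate block. With robust eBayes 4 members were called, and with array weights 4, Gstz1 and Aldh4a1 being added. Of probe sets without a suffix, only that of Aldh6a1 was called, 1 member. Leaving out an array gave 0 to 6 members, 198 to 1171 probe sets (0 members without AKR_F1 replicate 1, AKR_F1 replicate 2 or DBA_F1 replicate 2, and 6 without AKR_F1 replicate 3) and 2 to 10 other pathway genes. AKR_F1 replicate 3 alone gave 0 members, 1 pathway gene and 85 probe sets. The squamous covariate gave 0 members and 255 probe sets, and the adipocyte covariate 0 members, 0 pathway genes and 8 probe sets. Array weights gave 1198 probe sets and 6 pathway genes. The cause of these changes was not tested, and some of the fits had fewer arrays.

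Deviations of same-numbered arrays from their group means correlated at 0.311, -0.228 and -0.05. Those of differently numbered arrays correlated at -0.275 to 0.312. With 3 arrays per group these values cannot show whether the samples were paired. With the replicate block 539 probe sets were called instead of 707, and 2 members and 4 other pathway genes.

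Signs turned for genes that were not called. Gstp1 became 0.0096 under quantile normalization, 0.076 for AKR_F1 replicate 3 alone, 0.073 with the squamous covariate, and -0.046 to 0.033 over the fits without an array (above 0 without AKR_F1 replicate 2 or DBA_F1 replicate 1, where it was 0.0018). Aldh2 became 0.0055 with array weights, 0.0028 as the mean of probe sets, and -0.07 to 0.036 over the fits without an array (0.019 without DBA_F1 replicate 3). Gstm1 ran from -0.042 to 0.0086 over these fits. For AKR_F1 replicate 3 alone, Sult2b1 was 0.16, Nqo1 0.03 and Crabp2 0.22, and with the squamous covariate 0.17, 0.012 and 0.16. With the adipocyte covariate Ces2g was 0.27 and Ephx2 0.40. Over the named genes, 610 of the alternative values kept sign and side of the threshold, 15 passed it, 21 no longer did and 19 turned sign.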
